A study of Mus musculus with 12 samples.

Results

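Cycloheximide (CHX) stops translating ribosomes, and it is used to separate primary response genes, whose induction needs no new protein, from secondary response genes. The genes described here were chosen by their levels after 4 h of stimulation and were not sorted into these classes. At that time the phorbol ester PMA and the calcium ionophore ionomycin (P/I) had left their mean mRNA level almost where it was. The mRNA was much higher when P/I was given in the presence of CHX. No earlier time was measured, so a brief early response would not be seen. Members were chosen by measured values on Affymetrix Mouse Gene 1.0ST arrays, whose probe sets each report a group of transcripts (a transcript cluster) as 1 log2 signal. A probe set was taken when it had exactly 1 gene symbol, when the mean after P/I lay within 0.3 log2 of the unstimulated mean, and when the mean with CHX plus P/I was at least 1 log2 above the mean with P/I alone. Symbols were passed over by their first or last letters, which covers many histone genes, Zfp, Klf and Clk genes, small nucleolar RNAs and predicted genes. This left out 37 probe sets that met the limits, while histone genes with other symbols, such as H2aw, stayed in. The rule gave 195 of 21789 probe sets with 1 symbol, and they stand for 191 genes, since Aff1, Wnk1, Zc3h6 and Cspp1 have more than 1. Another 47 probe sets with several symbols and 36 with none also met the limits and are not members.

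The cells were EL-4, a mouse T lymphoma line that P/I activates through protein kinase C and calcium, downstream of the T cell receptor. Cells received CHX at 10 μg/ml in DMSO, or DMSO alone, for 30 min, and were then stimulated with PMA at 10 ng/ml plus ionomycin at 1 μM for 0 h or 4 h. The 4 groups are therefore unstimulated DMSO cells, P/I-stimulated DMSO cells, unstimulated CHX cells and P/I-stimulated CHX cells, with 3 biological replicates each and 12 arrays in all. It is not stated how long the unstimulated CHX cells stayed in CHX beyond the pretreatment, so a longer exposure to CHX and the stimulus cannot be told apart wherever the CHX effect with P/I is set beside the CHX effect without it. All groups come from 1 cell line, and the number of arrays limits the precision.

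Many mRNAs of regulatory genes are made and destroyed quickly. When translation is blocked, labile repressor proteins and labile components of mRNA decay are lost within a short time, and the mRNA of immediate early genes is known to overshoot, a behaviour called superinduction. Transcripts that carry a premature stop codon, such as those with the poison exons of splicing factor genes, are a separate case, because nonsense-mediated decay destroys them only while they are being translated.

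The 195 members had basal levels, the mean in unstimulated DMSO cells, between log2 4.15 and 11.19 with a median of 6.91, against 5.89 over all 23410 tested probe sets. Of the members 91 (46.7%) had a basal level of 7 or more, against 36.6% of the tested probe sets, and 56 were under 6. The highest basal levels were those of Rbm39, Inpp5d, Atp2a3, Icos, Wnk1 (10.06) and Ythdc1, and the lowest those of Kcnj2, Iqcf4 (4.32), Klk1b24, Olfr1377, Zc3h6 (4.47) and Olfr1372-ps1. With CHX plus P/I the members lay between 5.40 and 12.22. The difference that chose them, CHX against DMSO during P/I, had a median of 1.28 and reached 3.83. It was under 1.5 for 134 members, at least 2 for 22 and at least 3 for 4, which were Olfr1372-ps1, Jun, H2aw and Neurl3. The values just inside the limit were 1.001 for Ccdc57, 1.005 for Stam and 1.006 for Zc3h10, and those just outside were 0.998 for Anapc7, 0.995 for Polg2 and 0.995 for Zdhhc17, so the list has no natural edge. At the edge of the P/I window, D16Ertd472e (-0.296), Cspp1 (-0.295) and Tob1 (-0.294) were inside, and Ubn1 (-0.304), Pex5 (-0.304) and Tnfrsf26 (0.304) were outside. In 183 of the 195 members all 3 arrays with CHX plus P/I lay above the other 9 arrays. The rule favours such an order, and its share over all tested probe sets was not counted. No test is given for the CHX effect during P/I, since it chose the members. In bulk RNA, fewer cells with the mRNA and less mRNA per cell cannot be told apart, and the scaling of the arrays to each other removes any change in total mRNA.

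**Figure D1:**
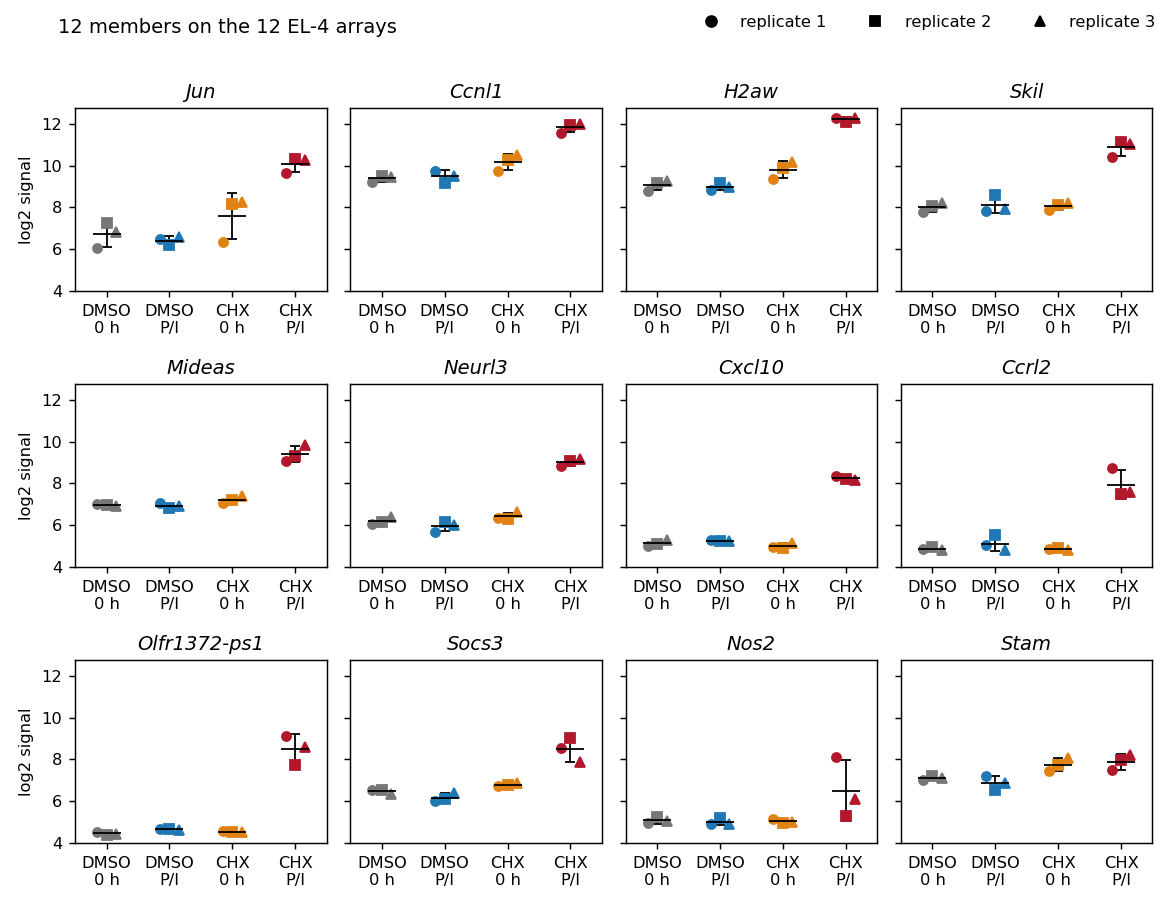
Log2 signal of 12 members on every array, in unstimulated (0 h) and P/I-stimulated cells with DMSO or CHX. Symbols mark the replicates, and bars give the mean and SD of 3 arrays. Cxcl10, Ccrl2 and Olfr1372-ps1 stand above log2 7 in none of the groups but CHX plus P/I, Jun and Ccnl1 are also higher on most CHX arrays without P/I, Nos2 spreads from 5.28 to 8.12, and Stam is about as high with CHX alone as with CHX plus P/I.

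The arrays of the 4 groups were close in their overall levels. Within a group, Pearson correlations between arrays were 0.983 to 0.994. T cell genes such as Cd3g (12.60 in unstimulated DMSO cells), Cd3e (10.71) and Thy1 (10.73) were well expressed, and the summed level of 15 T cell identity genes stayed between log2 14.27 and 14.76 on the 12 arrays. The summed levels of 9 B cell markers (8.31 to 8.82), 10 myeloid markers (8.41 to 8.94) and 7 erythroid and fibroblast markers (9.91 to 10.76) were lower, with Ms4a1 at 4.21, Cd14 at 4.58 and Lyz2 at 4.37. Not all of these markers were low. The highest basal level was 7.44 in the B cell list, 6.72 in the myeloid list and 9.98 in the erythroid and fibroblast list. The myeloid list holds 1 member, the Fc receptor gene Fcgr1.

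Promoters were read from RefSeq sequences of build GRCm38.p6, 250 bases before to 50 bases after the transcription start, for 152 of the 191 genes (202 promoters), and were set beside 19116 promoters of 15563 measured genes. The members' promoters were richer in GC (median 62.0%, against 57.7%) and held more CpG pairs (21 against 15). At a basal level of 7 or more these values were 64.3% and 25, against 61.7% and 22, and under 7 they were 59.7% and 15, against 54.3% and 8. The GC box GGGCGG was in 65.8% of the members' promoters, against 49.3%, and the NF-κB pattern (GGGA and CC separated by any 4 bases) in 30.7%, against 23.9%. Within the basal classes the NF-κB shares were 34.1% against 26.4% at 7 or more and 27.9% against 22.4% under 7. The AP-1 pattern TGANTCA was in 3.96% against 6.88%. By basal class it was in 5.49% against 4.01% at 7 or more and 2.7% against 8.69% under 7. These shares are 5 of 91 and 3 of 111 member promoters, too few to read a direction by basal level. Shares of the other patterns were 4.95% against 8.26% for the E-box CACGTG, 5.45% against 6.94% for the NRF1 pattern (GCGCA and GCGC separated by any base), 8.91% against 11.5% for TATAAA, 37.1% against 37.4% for CCAAT and 0.99% against 1.41% for the CArG box of SRF (CC and GG separated by 6 A or T bases). They were 2.97% against 2.37% for the CRE TGACGTCA, 6.44% against 5.42% for ETS CCGGAAGT and 3.47% against 1.94% for YY1 AAGATGGCG. Patterns were searched on both strands, the GC box can overlap with NRF1 matches, and no share was tested.

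A few promoters are shown because their genes stand for the kinds of member described below. In Cxcl10 and Tnip1, whose CHX effects without P/I were -0.12 and 0.05, capitals mark the NF-κB pattern. In Jun and Ccnl1, which had the largest CHX effects in unstimulated cells, capitals mark TGACNTCA, a pattern that covers the CRE and was picked after these sequences were read. It was in 8.91% of the members' promoters and 7.69% of all. The windows are chr5:92348840-92349139 (minus strand) for Cxcl10, chr11:54962891-54963190 (minus strand) for Tnip1, chr4:95052173-95052472 (minus strand) for Jun and chr3:65958200-65958499 (minus strand) for Ccnl1.
Cxcl10: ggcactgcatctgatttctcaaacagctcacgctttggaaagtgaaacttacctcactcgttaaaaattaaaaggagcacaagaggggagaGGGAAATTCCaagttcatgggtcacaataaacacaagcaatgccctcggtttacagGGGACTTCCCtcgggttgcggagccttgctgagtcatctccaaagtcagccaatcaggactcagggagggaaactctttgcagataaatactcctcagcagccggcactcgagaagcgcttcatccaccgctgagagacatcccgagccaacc
Tnip1: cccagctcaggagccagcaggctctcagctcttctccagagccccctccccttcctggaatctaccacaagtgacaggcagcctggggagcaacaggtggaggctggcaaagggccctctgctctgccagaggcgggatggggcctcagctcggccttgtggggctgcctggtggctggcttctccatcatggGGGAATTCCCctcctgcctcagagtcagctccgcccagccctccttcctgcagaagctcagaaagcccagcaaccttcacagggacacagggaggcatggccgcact
Jun: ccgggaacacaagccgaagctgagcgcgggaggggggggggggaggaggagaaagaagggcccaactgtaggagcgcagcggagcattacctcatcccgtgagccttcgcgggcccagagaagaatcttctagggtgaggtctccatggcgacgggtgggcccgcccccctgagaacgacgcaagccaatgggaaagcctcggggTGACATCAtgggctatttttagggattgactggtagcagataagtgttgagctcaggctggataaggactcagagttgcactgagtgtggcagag
Ccnl1: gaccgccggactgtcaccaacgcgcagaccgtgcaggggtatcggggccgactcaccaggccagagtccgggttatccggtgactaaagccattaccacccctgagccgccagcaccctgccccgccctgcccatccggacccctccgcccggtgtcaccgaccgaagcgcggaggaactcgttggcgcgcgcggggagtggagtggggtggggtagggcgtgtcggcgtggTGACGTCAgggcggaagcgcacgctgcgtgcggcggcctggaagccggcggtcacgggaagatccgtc
The matches in Cxcl10 begin 159 and 103 bases before the start, that in Tnip1 57, that in Jun 45 and that in Ccnl1 18. A match is a description of letters and not of binding. Counted by gene, 56 of 152 members (36.8%) had the NF-κB pattern in a promoter, against 26.8% of all 15563 genes. By role it was in 11 of 22 chromatin and transcription genes, 9 of 20 RNA processing genes (Ccnl1 among them), 9 of 23 signalling genes, 6 of 14 immune surface genes (Cxcl10, Ccrl2, P2rx1, H2-Q4, Helz2 and Madcam1), 3 of 9 ubiquitin genes and 17 of 52 of the remaining genes, and in none of 5 DNA repair or 3 histone genes.

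The CHX effect in unstimulated cells was not used to choose the members, although their unstimulated DMSO arrays entered the window for P/I. Its median over the members was 0.20 log2, against -0.02 over all tested probe sets, and it was positive for 157 members (80.5%), against 44.9% of the tested probe sets. It reached 0.5 in 23 members (11.8%, against 1.06% of all) and 1 in none. No member passed a Benjamini-Hochberg adjusted p under 0.1 in limma, where 7 probe sets (0.0299%) were higher and none lower. At an unadjusted p under 0.05, 45 members (23.1%) were higher, against 4.13% of the tested probe sets, and none was lower, against 2.74%; a linear model without moderation gave 32 higher. The 3 CHX arrays lay above the 3 DMSO arrays in 53 members (27.2%, against 7.06% of all) and below them in 3 (1.54%, against 9.15%). Same-numbered arrays of these groups deviated together, which the fit behind these counts does not use. With the replicate number as a block, 67 members were higher at an unadjusted p under 0.05 in limma. That share over all tested probe sets was not counted. With the replicate number as a block, 5 members were higher (Fnbp4, Tdp2, H2aw, Mylip and Slc15a4, adjusted p from 0.075 to 0.0844), against 0.491% of all.

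The calls depended on replicate 1. The members' median difference between unstimulated CHX and DMSO cells was 0.09 in replicate 1, 0.21 in replicate 2 and 0.27 in replicate 3, and 142, 158 and 153 members were positive. Without the 4 arrays of replicate 1, 40 members were called higher, and 662 of all tested probe sets. Without the unstimulated CHX array of replicate 1 there were 4 (43 of all tested), and without the P/I-stimulated DMSO array of replicate 1 there were 2 (28 of all tested). Leaving out the unstimulated CHX array of replicate 3 lowered the median to 0.10.

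**Figure D2:**
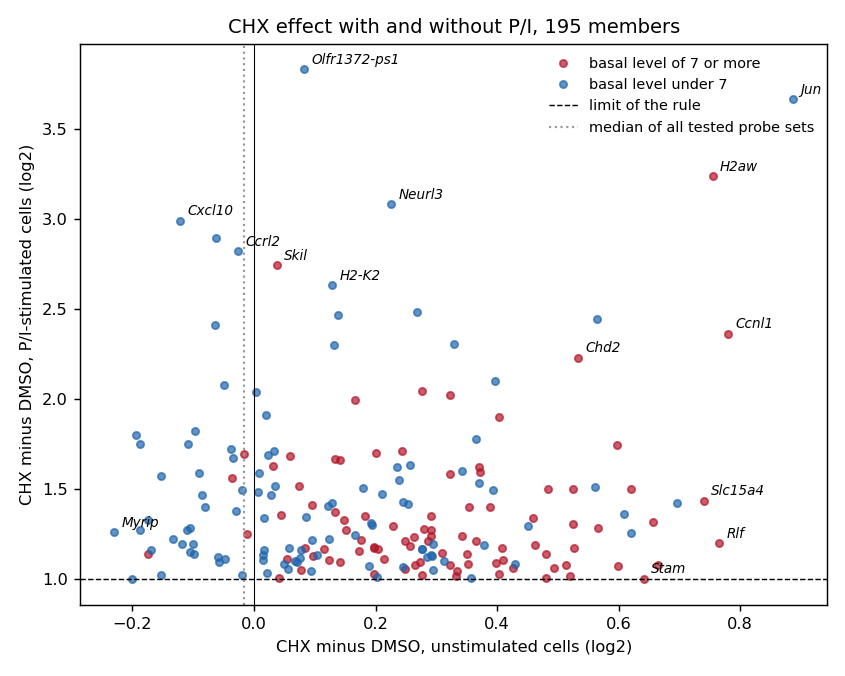
Difference between CHX and DMSO in unstimulated cells (x axis, log2) and in P/I-stimulated cells (y axis, log2) for the 195 members, coloured by basal level. The dashed line is the limit that chose the members and the dotted line the median of all tested probe sets without P/I, -0.02. Jun, H2aw and Ccnl1 are high on both axes, while Cxcl10, Ccrl2 and Skil are high during P/I with values near 0 without it.

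The CHX effect without P/I went with the basal level. Among the 91 members with a basal level of 7 or more its median was 0.29 and 35 (38.5%) were higher at an unadjusted p under 0.05, against a median of 0.07 and 7.05% for all tested probe sets at that level. Among the 56 members with a basal level under 6 its median was -0.02 and 1 was higher, and all tested probe sets at that level had a median of -0.06. Seen the other way, P/I in CHX-treated cells went with a median difference of 1.14 over the members, against 0.02 over all tested probe sets. It was at least 1 in 123 members and at least 2 in 16, and these shares over all tested probe sets were not counted. The rule favours such values, since it sets CHX plus P/I at least 1 above P/I alone, itself near the unstimulated DMSO mean. P/I in DMSO-treated cells gave a median of -0.02 by construction. The CHX effect was larger with P/I than without it for all 195 members, by 0.36 to 3.75, which the choice of members favours, and it was not tested.

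**Figure D3:**
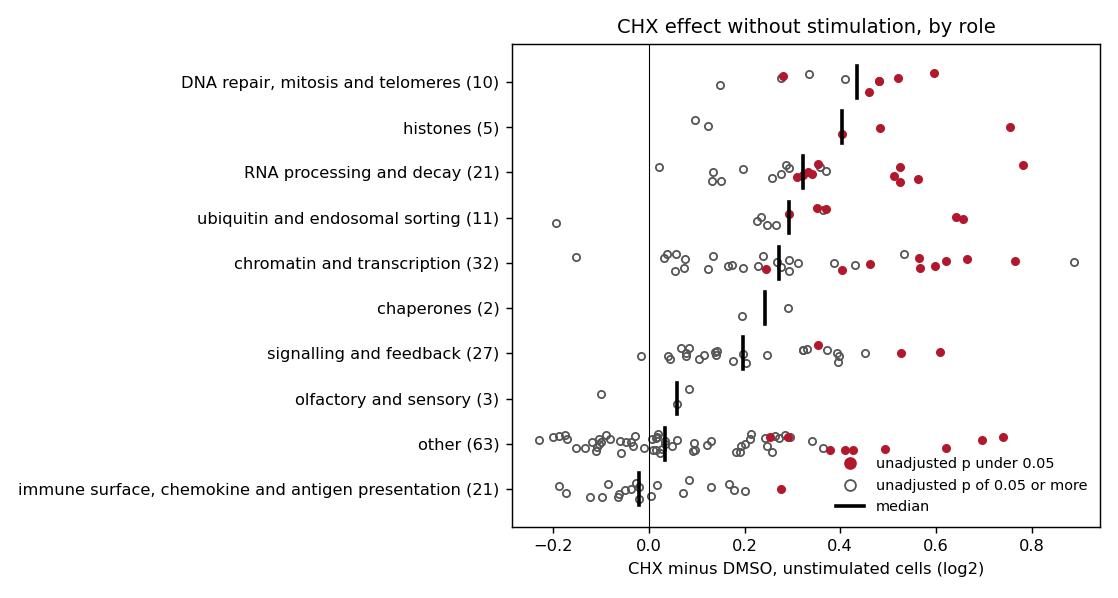
CHX minus DMSO in unstimulated cells (log2) for each member, by role, with the number of probe sets in parentheses and the median as a bar. The medians run from -0.02 for the immune surface and chemokine genes to 0.44 for DNA repair, mitosis and telomere genes.

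Roles were assigned after the values had been seen, so the groups are a description. Transcription and chromatin regulators formed the largest named group, with 32 probe sets of 31 genes, a median basal level of 7.41, and median CHX effects of 1.22 with P/I and 0.27 without. Jun, a subunit of the AP-1 factor whose promoter is printed above, read 6.05, 7.23 and 6.81 in unstimulated DMSO cells, 6.49, 6.17 and 6.55 with P/I, 6.33, 8.17 and 8.25 with CHX alone and 9.65, 10.30 and 10.26 with both. Its 3 values with both treatments were above all others, and the CHX arrays of replicates 2 and 3 were above the unstimulated DMSO arrays while that of replicate 1 was within their range. The difference during P/I was 3.67 log2 (12.7-fold), and that without P/I was 0.89 (SE 0.45, adjusted p = 0.757 from limma). Without replicate 1 the latter was 1.19 (adjusted p = 0.00801 from limma). Jun was the 1 member among 26 measured immediate early transcription factors. Of the 26, 6 (23.1%) were higher with CHX alone at an unadjusted p under 0.05, against 4.26% of all 19938 measured genes, and none was lower.

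Skil, a corepressor of Smad proteins in TGF-beta signalling, showed no such effect without P/I. It read 7.77, 8.06 and 8.22 in unstimulated DMSO cells, 7.84, 8.59 and 7.93 with P/I, 7.86, 8.09 and 8.21 with CHX alone, and 10.41, 11.15 and 11.04 with both. The first 3 groups overlap and the last stands apart by 6.70-fold, whereas CHX alone gave 0.04 (SE 0.23). Smad7, an inhibitory Smad, is the other member among 19 genes of TGF-beta and BMP feedback, with 1.59 during P/I and 0.32 without. Mideas, a scaffold of a histone deacetylase complex, read 6.90 to 7.02 in unstimulated DMSO cells, 6.82 to 7.03 with P/I, 7.06 to 7.39 with CHX alone and 9.07, 9.33 and 9.82 with both. Its CHX arrays lay above the DMSO arrays also without P/I, by 0.27 (SE 0.16, unadjusted p = 0.117). The remodeller Chd2 differed by 2.23 with P/I and 0.53 without, and Msl3l2 by 2.45 and 0.57.

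The 5 members whose CHX effects with and without P/I were most alike were Rlf, Morc3, Stam, Zbtb11 and Tdp2, of which 3 belong to this group. Rlf, a zinc finger protein, read 7.85, 7.65 and 8.06 in unstimulated DMSO cells and 8.26, 8.57 and 9.03 with CHX alone, which do not overlap, and 8.72, 9.06 and 9.02 with CHX plus P/I, which overlap with CHX alone. Its CHX effects were 1.2 and 0.77 (SE 0.25, unadjusted p = 0.00938). Morc3, a nuclear ATPase of the MORC family, had 1.08 and 0.67 (SE 0.17, unadjusted p = 0.00242), and Zbtb11, a zinc finger factor, 1.07 and 0.60. Ttf1, which terminates transcription by RNA polymerase I, had 1.26 and 0.62, the histone demethylase Kdm3a 1.29 and 0.57, and the bromodomain protein Brd2, which binds acetylated histones, 1.03 and 0.40. Other chromatin members had little effect without P/I, such as the Polycomb-linked genes Jarid2 (1.63 and 0.03), Bcor (1.52 and 0.07) and Rybp (1.11 and 0.06). Aff1, a scaffold of the super elongation complex, was a member through both of its probe sets, with 1.67 and 1.2 during P/I and 0.13 and 0.29 without. Aff1 and Brd2 are the members among 18 genes of RNA polymerase II pause release, of which 6 (33.3%) were higher with CHX alone at an unadjusted p under 0.05, against 4.26% of all genes and 7.05% of the probe sets with a basal level of 7 or more. Zbtb11, Zbtb2, Zbtb48 and Zkscan6 are the members among 65 Zbtb, Zkscan and Zscan zinc finger factors, with effects without P/I of 0.24 to 0.60, and of the 65, 14 (21.5%) were higher. Kdm3a is the member among 38 histone methyltransferases and demethylases, of which 3 (7.89%) were higher, a share near that of all probe sets with a basal level of 7 or more. None of these 3 lists had a gene that was lower at an unadjusted p under 0.05 or any that passed the adjusted p.

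RNA processing and decay made up 21 probe sets of 20 genes, the group with the highest basal median among those of more than 5 probe sets (8.10). Its median CHX effects were 1.21 with P/I and 0.32 without. Of the 21, 10 were higher without P/I at an unadjusted p under 0.05, against 4.13% of all tested probe sets. At a basal level of 7 or more the share was 7.05% over all tested probe sets and 38.5% over the members. Ccnl1, a cyclin that acts with CDK11 in splicing, read 9.21, 9.52 and 9.45 in unstimulated DMSO cells, 9.75, 9.18 and 9.52 with P/I, 9.75, 10.28 and 10.49 with CHX alone, and 11.58, 11.96 and 12 with both. CHX alone was above all 3 unstimulated DMSO arrays, by 0.78 (SE 0.20, unadjusted p = 0.00206, adjusted p = 0.42 from limma), and the difference during P/I was 2.36 (5.15-fold). Its relative Ccnl2 had 1.08 and 0.51. The splicing factor Rbm39, the member with the highest basal level, read 10.96 to 11.32 in unstimulated DMSO cells and 11.94 to 12.34 with CHX plus P/I. Rbm5, another splicing factor, had 1.31 and 0.53, and Ythdc1, which binds N6-methyladenosine in the nucleus, 1.24 and 0.34. These 4 (Ccnl1, Ccnl2, Rbm39 and Rbm5) are the members among 36 measured genes of splicing factors with poison exons and their partners. Of the 36, whose median basal level was 10.05, 12 (33.3%) were higher with CHX alone at an unadjusted p under 0.05, against 4.26% of all genes and 7.05% of the probe sets with a basal level of 7 or more. None was lower and none passed the adjusted p.

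Of 29 measured genes of AU-rich and deadenylation-linked mRNA decay, 3 are members. Tob2, which brings the CCR4-NOT deadenylase to its targets, read 6.74, 6.96 and 6.84 in unstimulated DMSO cells, 6.78, 6.53 and 6.76 with P/I, 6.80, 7.09 and 7.04 with CHX alone, and 8.85, 9.03 and 9.10 with both. The difference during P/I was 4.93-fold, and CHX alone gave 0.13 (SE 0.11). Tob1, the paralog, had 1.21 and 0.29, and the deadenylase Pan2 1.27 and 0.15. Of the 29, whose median basal level was 8.89, 4 (13.8%) were higher with CHX alone at an unadjusted p under 0.05. The share was 4.26% of all genes and 7.05% of the probe sets with a basal level of 7 or more. None of the 29 was lower and none passed the adjusted p. In gene lists without a member this share ran from 0% (the Bcl2 family among them) to 28.6% (nonsense-mediated decay factors). Fnbp4, with 1.5 and 0.53 (SE 0.12), was among the 5 members called under the replicate block (adjusted p = 0.075 from limma). The 3' end processing genes Pcf11 and Cpsf7 had 1.63 and 1.18 during P/I and 0.37 and 0.20 without.

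Inhibitors and relays of signalling gave 27 probe sets of 26 genes, with median CHX effects of 1.18 with P/I and 0.20 without. Dusp8 and Dusp16, phosphatases of stress-linked MAP kinases, are the members among 17 genes of MAP kinase phosphatases, Sprouty and Spred. Dusp8 read 4.80, 5.31 and 5.18 in unstimulated DMSO cells, 5.58, 4.96 and 5.32 with P/I, 4.92, 5.36 and 5.42 with CHX alone and 7.58, 7.67 and 8.02 with both. The first 3 groups overlap, and the difference during P/I was 5.54-fold. Dusp16 had 2.10 and 0.40 (SE 0.35). Socs3, a feedback inhibitor of cytokine signalling through JAK kinases and the member among 8 SOCS and CISH genes, read 6.32 to 6.53 in unstimulated DMSO cells, 5.99 to 6.40 with P/I, 6.71 to 6.86 with CHX alone, and 8.56, 9.0 and 7.85 with both. Its CHX arrays lay above the DMSO arrays without P/I too, by 0.33 (SE 0.22, unadjusted p = 0.165). With CHX alone, 2 (11.8%) of the 17 phosphatase, Sprouty and Spred genes were higher at an unadjusted p under 0.05, against 4.26% of all genes. Of the 8 SOCS and CISH genes 1 (12.5%) was higher, and of the 19 TGF-beta and BMP feedback genes none. None of these lists had a lower one, and counts this small describe single genes.

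Other signalling members were named after their values were seen. Rnf31, the catalytic subunit of the linear ubiquitin ligase, differed by 2.02 during P/I and 0.32 without, and Tnip1, a binding partner of the deubiquitinase A20, by 1.36 and 0.05. Tnip1 is the member among 17 NF-κB subunits and inhibitors, of which 4 (23.5%, against 4.26% of all genes) were higher with CHX alone at an unadjusted p under 0.05 and none lower. The kinases Irak2 and Tbk1 had 1.10 and 1.06 during P/I and 0.07 and 0.25 without. Relt, a TNF receptor family protein, read 5.90 to 6.2 in unstimulated DMSO cells and 6.52 to 6.71 with CHX alone, and its effects were 1.36 and 0.61 (SE 0.16, unadjusted p = 0.0021). The lipid phosphatase Inpp5d and the inositol kinase Itpkb, both well expressed in lymphocytes, had 1.17 each during P/I and 0.12 and 0.20 without.

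Immune surface, chemokine and antigen presentation genes gave 21 members. They had a basal median of 6.02, the highest median CHX effect during P/I among the groups of more than 5 probe sets (1.70) and a median of -0.02 without P/I. The last value is also that of all members with a basal level under 6, and no difference between role groups was tested. Cxcl10, a chemokine that attracts activated T cells through Cxcr3 and whose promoter is printed above, read 5.01, 5.08 and 5.26 in unstimulated DMSO cells, 5.29, 5.22 and 5.22 with P/I, 4.96, 4.88 and 5.15 with CHX alone, and 8.37, 8.19 and 8.15 with both. The first 3 groups lay between 4.88 and 5.29 and the last was 7.96-fold above P/I alone. CHX alone gave -0.12 (SE 0.10, unadjusted p = 0.232). Ccrl2, an atypical receptor for chemerin, read 4.78 to 5.51 on the 9 other arrays and 8.73, 7.47 and 7.59 with CHX plus P/I. Cd209c, a C-type lectin gene, read 4.61 to 5.30 on the 9 other arrays and 8.52, 7.46 and 7.68 with both.

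Class I genes of the major histocompatibility complex were members. H2-K2, annotated as a transcribed pseudogene, read 5.90 to 6.60 on the 9 other arrays and 8.72, 8.61 and 8.64 with CHX plus P/I. The protein-coding H2-Q4 read 9.29 to 9.90 and 11.38 to 11.76. Class I genes are alike in sequence, so the probes of one may read mRNA of another. The costimulatory receptor gene Icos, already high at 10.08 to 10.62 in unstimulated DMSO cells, read 12.27, 11.66 and 12.19 with both treatments. P2rx1, an ATP-gated channel, had 2.41 during P/I and -0.07 without, the chemokine Ccl25 2.08 and -0.05, the kinin receptor Bdkrb1 2.04 and 0.00, the adhesion molecule Icam1 1.83 and -0.10, and Cd40 1.10 and 0.07. The Fc receptor gene Fcgr1 had 1.33 and -0.17, the adhesion molecule gene L1cam 1.28 and -0.19, and Trim12a, a TRIM gene with close copies beside it, 1.51 and 0.18. Of the 21 members of this group, 1 (H2-Q4, 0.28, unadjusted p = 0.0498 from limma) was higher with CHX alone at an unadjusted p under 0.05. The share over all tested probe sets was 4.13%. The summed level of the 10 myeloid markers was 8.55 to 8.56 in unstimulated DMSO cells, 8.68 to 8.78 with P/I, 8.41 to 8.47 with CHX alone and 8.54 to 8.94 with both, and its part in these values was not tested.

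With CHX plus P/I, the replicates of some of these genes lay far apart. Nos2, the inducible nitric oxide synthase, read 8.12, 5.28 and 6.10 with both treatments against 4.90 to 5.25 on the other arrays, and Kcnj2, a potassium channel, 7.08, 4.74 and 5.15 against 4.03 to 4.21. Replicate 1 exceeded the mean of replicates 2 and 3 by at least 1 log2 in 9 members, among them Nos2, Kcnj2, Icam1, Fcgr1, Nfatc4 and Ccrl2, and it was lower by at least 1 in 7, among them Cplx1, Tdrkh and Rem2. It exceeded that mean by 0.5 or more in 17 members, with a median basal level of 4.86 and 6 immune surface genes among them, and it was lower by 0.5 or more in 49 members, with a median basal level of 6.97. It was above the mean at all in 57 of the 195 members. Over all members the SD of the 3 arrays with both treatments had a median of 0.26, against 0.14 for unstimulated DMSO cells, 0.18 with P/I and 0.18 with CHX alone.

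Ubiquitin and endosomal sorting genes gave 11 members. Neurl3, a RING ubiquitin ligase, read 6.05, 6.13 and 6.37 in unstimulated DMSO cells, 5.67, 6.14 and 5.99 with P/I, 6.33, 6.28 and 6.61 with CHX alone, and 8.82, 9.05 and 9.18 with both. The difference during P/I was 8.48-fold, and CHX alone gave 0.23 (SE 0.15). Stam, a part of the ESCRT-0 complex that sorts ubiquitinated receptors, was the opposite case. It read 7.0, 7.21 and 7.09 in unstimulated DMSO cells, 7.44, 7.74 and 8.05 with CHX alone and 7.47, 7.95 and 8.19 with both, so that the arrays with CHX overlap whether or not P/I was given. Its CHX effects were 1.01 and 0.64 (SE 0.21, unadjusted p = 0.00992). Mylip, a ligase that marks the LDL receptor for destruction, read 7.17 to 7.39 in unstimulated DMSO cells and 7.60 to 8.19 with CHX alone, a difference of 0.66 (SE 0.21, adjusted p = 0.567 from limma, or 0.0842 with the replicate block). Fbxw10, an F-box gene, had 1.81 and -0.19, and Fbxo38, another F-box gene, 1.14 and 0.35. The deubiquitinase gene Usp20 had 1.28 and 0.29 (SE 0.11, unadjusted p = 0.0198), and Klhl7, an adaptor of a cullin ligase, 1.43 and 0.25.

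The 5 histone genes that remained in the list after the symbol filter had a basal median of 9.05. H2aw, a member of the small histone cluster on chromosome 11, read 8.77, 9.14 and 9.24 in unstimulated DMSO cells, 8.81, 9.17 and 8.97 with P/I, 9.36, 9.86 and 10.18 with CHX alone, and 12.30, 12.08 and 12.28 with both. All 3 CHX arrays were above the DMSO arrays without P/I, by 0.76 (SE 0.19, adjusted p = 0.404 from limma, or 0.0764 with the replicate block), and the difference during P/I was 9.43-fold. H2bu1-ps, annotated as a transcribed pseudogene, and H2bu2 lie beside it and had 1.90 and 1.22 during P/I. The variant H2ax, which is phosphorylated at DNA breaks, had 1.41 and 0.10. Histone genes are near copies of each other, so their probes may read several of them.

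DNA repair, mitosis and telomere genes had the highest median without P/I (0.44), with a median basal level of 7.75. Of their 10 probe sets, 5 were higher at an unadjusted p under 0.05, and 2 of these were of Cspp1. The share was 4.13% over all tested probe sets, 7.05% over those with a basal level of 7 or more and 38.5% over the members at that level. Tdp2, which removes topoisomerase adducts from DNA ends, read 8.13, 7.88 and 8.0 in unstimulated DMSO cells and 8.51, 8.43 and 8.64 with CHX alone, which do not overlap. The difference was 0.52 (SE 0.11, adjusted p = 0.344 from limma, or 0.075 with the replicate block), and 1.02 during P/I. Cdkn2aip had 1.75 and 0.60. Cspp1, a centrosome gene, was a member through 2 probe sets, with 1.34 and 1.28 during P/I. Chaperones gave only Dnajb1 and Dnajb2, with 1.35 and 1.30 during P/I, and Dnajb1 is 1 of 14 measured heat shock factors and chaperones.

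Some members are genes known mainly from other tissues, and several of them had a low signal in EL-4 cells. Olfr1372-ps1, an olfactory receptor pseudogene, had the largest difference of all. It read 4.53, 4.37 and 4.44 in unstimulated DMSO cells, 4.68, 4.68 and 4.6 with P/I, 4.54, 4.53 and 4.52 with CHX alone, and 9.12, 7.73 and 8.61 with both, which is 14.2-fold above P/I alone. Only 2 of 1194 measured olfactory and vomeronasal receptor genes are members, the other being Olfr1377 (1.17). The kallikrein gene Klk1b24 (1.31), the actin-like gene Acte1 (1.76), the visual arrestin Sag (1.2) and the protease gene Hpn (1.75) had unstimulated DMSO means of 4.4, 4.57, 5.70 and 5.57. The measured genes next to such members gave mixed values in the same comparison. The neighbours of Acte1 differed by 1.5 (Dhcr7) and 0.09 (Shank2), those of Hpn by 0.06 (Fxyd3) and 1.24 (Gramd1a), and those of Olfr1377 by 0.67 (Olfr1378) and 0.08 (Olfr51). Unlike the members, Dhcr7 and Gramd1a lay outside the P/I window, with P/I effects in DMSO cells of -1.59 and 0.9. The neighbours of Sag differed by 0.27 and 0.47, those of Olfr1372-ps1 by 0.12 and 0.35, those of Klk1b24 by -0.08 and 0.06, those of Cd209c by 0.06 and 0.16, and those of Cxcl10 by 0.07 and -0.12. Members that lie next to each other among the measured genes were Ramp3 and Adcy1, Atp2a3 and P2rx1, Pnma1 and Mideas, Abcg4 and Hinfp, and the 3 histone genes above.

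The remaining 63 members are transporters, enzymes, cytoskeletal and little studied genes, with a basal median of 5.95 and a median CHX effect of 0.03 without P/I. The largest without P/I were Slc15a4, a lysosomal peptide and histidine transporter, and Nhlrc3. Slc15a4 read 7.88, 7.77 and 7.80 in unstimulated DMSO cells, 8.41, 7.70 and 8.10 with P/I, 8.34, 8.51 and 8.83 with CHX alone, and 9.49, 9.47 and 9.56 with both. The difference was 0.74 without P/I (SE 0.16, adjusted p = 0.349 from limma, or 0.0844 with the replicate block) and 1.44 during P/I. Nhlrc3 had 0.70 and 1.42, and Rundc1 0.62 and 1.5. The lowest values without P/I in this group were those of Myrip (-0.23), Ccdc57 (-0.20), Hpn (-0.19), Prr7 (-0.18) and Cplx1 (-0.17). Atp2a3, the calcium pump of the endoplasmic reticulum in blood cells, read 10.27 to 10.60 on the 9 other arrays and 11.71 to 11.85 with both treatments.

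Members rechosen without 1 replicate kept the difference in that replicate, though it was smaller in replicate 1. With replicate 1 left out, 257 probe sets met the rule, and in the arrays of replicate 1 their median CHX effect during P/I was 0.79, with 251 above 0 and 39.3% at 1 or more, against 2.29% of all tested probe sets. With replicate 2 left out, 200 were chosen, with a median of 1.28 in replicate 2 and 73.0% at 1 or more, against 3.5%. With replicate 3 left out, 172 were chosen, with a median of 1.52 and 90.7%, against 4.43%. The P/I effect in DMSO cells of the replicate left out stayed within 0.3 for 61.9%, 67.5% and 68.0%. The lists shared 154, 153 and 142 probe sets with the 195 members.

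**Figure D4:**
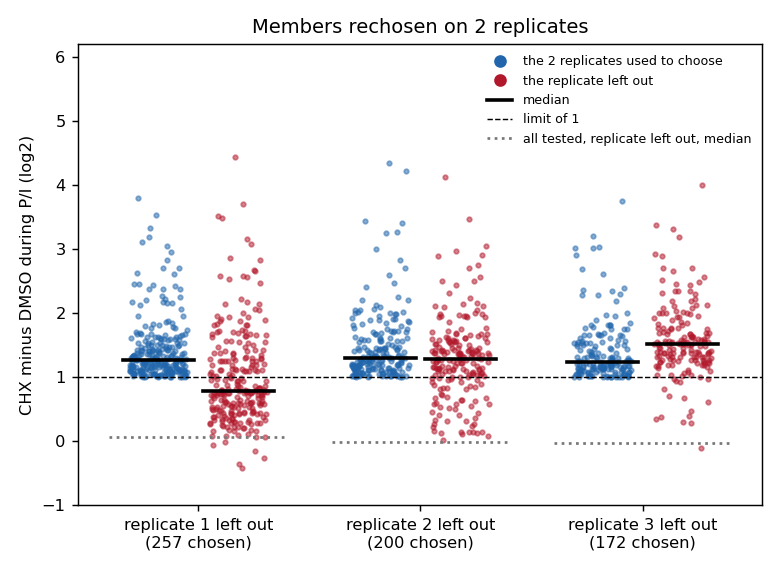
CHX minus DMSO during P/I (log2) of probe sets chosen by the rule on 2 replicates, in those 2 replicates (blue) and in the replicate left out (red). Black bars are medians, the dashed line is the limit of 1, and dotted lines are the medians of all tested probe sets in the replicate left out. The red medians are 0.79, 1.28 and 1.52, against dotted lines at 0.06, -0.01 and -0.02.

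Other probe sets of the same genes gave a further reading. For 14 member genes there were 33 further probe sets with 1 symbol, and all 33 had a positive CHX effect during P/I, against 52.1% of all tested probe sets, with a median of 0.72. Only 17 of the 33 had a P/I effect within the window of the rule. Of the 13 at 1 or more, 11 were among the 12 of Cspp1. These 11 lay outside the window, with P/I effects from -0.74 to -0.31. The remaining probe set of Cspp1 was inside it (-0.24) and had a CHX effect of 0.01. Outside Cspp1 the median was 0.65 and 2 of 21 reached 1 (Dusp8 and Zbtb2), against 2.85% of all tested probe sets, and 8 of the 21 were of Nup210l, so they are not independent genes. The other probe set of Dusp8 gave 2.97 but lay outside the P/I window at 0.44, and that of Socs3 gave 0.28.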

How the data were processed

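The authors corrected background with adjustment for probe sequence, normalized by quantiles and summarized with robust multichip average (RMA) in Partek, and the deposited values are log2 signals of 35399 probe sets. Symbols came from the platform annotation: 21789 probe sets have 1, 1621 several and 11989 none. The members, the gene lists and the role groups were chosen with earlier results of these data known. A mean per group was fitted to all 12 arrays with limma 3.58.1 in R 4.3.3 over the 23410 probe sets with a symbol (8 residual and 3.63 prior degrees of freedom), with calls at an adjusted p under 0.1 (Benjamini-Hochberg). For members, test results are given only for the contrast of unstimulated CHX and DMSO cells. Members were named for the 10 largest CHX effects during P/I, the 10 largest and 8 smallest in unstimulated cells, the 6 highest and 6 lowest basal levels, the 5 largest and 5 smallest differences of the CHX effects, up to 4 of each of the gene lists, and the limit. Other genes were named after their values were seen. In gene lists the probe set with the highest mean stands for a gene.

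The replicate numbers are those of the sample titles. Deviations from the group means of same-numbered unstimulated CHX and DMSO arrays correlated at 0.750, 0.536 and 0.512, so the numbers were taken to pair these arrays. The main fit has no term for this pairing, and SEs and p-values are unpaired unless the replicate block is named. For Jun the SE was 0.45 without the block and 0.31 with it. P-values measure the spread between 3 cultures of 1 line, estimated over all 4 groups together. That estimate includes the arrays with CHX plus P/I, where the members' SD was highest (median 0.26). A difference between the unstimulated groups can therefore get a large SE although its own arrays lie close together. The alternatives were scaling, pairing, moderation, a filter at log2 5, an adjusted p under 0.05, all probe sets, 1 probe set per gene, arrays left out and narrower limits of the rule (0.2 and 1.5).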

Additional observations from a re-analysis of the deposited data

Results flagged for a closer look

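In 3 members, every CHX array lay below every DMSO array in unstimulated cells and above every DMSO array during P/I, which is the opposite direction in the 2 states. They are the protease gene Hpn (-0.188 without P/I and 1.75 with it), Nfatc4, a member of the NFAT family of calcium-regulated factors (-0.153 and 1.57), and the adhesion molecule gene L1cam (-0.188 and 1.28). The difference between the 2 states was not tested, the higher level during P/I was a condition of the choice, and 9.15% of all tested probe sets had CHX arrays below the DMSO arrays without overlap in unstimulated cells, against 1.54% of the members. In limma the unstimulated differences had unadjusted p-values of 0.21, 0.579 and 0.238. The fit takes the spread from all 4 groups. For Nfatc4 the SD was 0.03 in unstimulated DMSO cells, 0.02 with CHX alone and 0.73 with CHX plus P/I.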

How the results depend on the processing

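The count of 0 members called higher with CHX in unstimulated cells (45 at an unadjusted p under 0.05 in limma) became 5 with the replicate block, 0 to 4 when 1 array was left out and 0 to 40 when the 4 arrays of a replicate number were left out, with 40 without replicate 1 (89 at an unadjusted p under 0.05) and 0 without replicate 2 or 3 (20 and 15). In limma, 0 members were called lower under each of these settings, with 1 at an unadjusted p under 0.05 without replicate 1 and 0 otherwise. Median centring, quantile normalization, a variance trend, no moderation, a mean of at least log2 5, an adjusted p under 0.05, all probe sets and 1 probe set per gene left both counts at 0, with 32 to 60 higher at an unadjusted p under 0.05. The members' median of 0.197 was 0.264 after median centring, 0.164 after quantile normalization, 0.101 to 0.288 when 1 array was left out (0.101 without CHX unstimulated replicate 3) and 0.152 to 0.245 when a replicate number was left out. Of 3510 values of single members under these settings, 51 passed the threshold, 40 of them without replicate 1 and 5 with the replicate block, and 0 called values changed sign. The cause was not tested. The rule gave 195 probe sets, 61 with a CHX limit of 1.5, 140 with the P/I window at 0.2, 227 after median centring, 206 after quantile normalization, 167 to 242 without 1 array and 172 to 257 without a replicate number.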
